A study of Mus musculus with 3 samples.

Results

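To describe gene expression after loss of the nuclear pore protein NUP153 by the second of the study's shRNAs, the NUP153 KD-2 library was compared with the control library over all genes that averaged at least 100 reads in the 2 libraries. Of 24421 genes in the counts, 20658 had a read in either library and 12626 (51.7%) reached this mean. These 12626 genes, which held 99.8% of the reads counted on genes, are the genes described here. RNA came from EL 16.7, a female mouse embryonic stem (ES) cell line with the strain label F2:129S1/CastEiJx 129S1, labelled undifferentiated and grown with LIF and serum. The control cells (genotype label wild type) received lentivirus with a scramble shRNA, and the KD-2 cells (genotype label NUP153 knockdown) received lentivirus with NUP153 shRNA-2. Both were plated on irradiated fibroblast feeders from DR4 mice and selected with 2 μg/ml puromycin for 2 days, and RNA of the whole culture was depleted of ribosomal RNA. Each condition has 1 library, so that no difference has a replicate check and no test was run.

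Reads on genes numbered 72344726 in control and 69839336 in KD-2. Libraries were scaled by their upper quartile, and each gene was described by its log2 ratio of KD-2 to control with a pseudocount of 0.5 reads. Genes were named higher or lower when the ratio was past 1.5-fold, the fold in the study's methods. Intervals in brackets are exact 95% intervals of the log2 ratio that cover the counting of reads only, and not the spread between cultures. The NUP153 KD-1 library, made with another shRNA, is given beside some values as its log2 ratio to the same control library, and the 2 ratios of a gene therefore share their control reads.

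NUP153 sits on the nuclear side of the nuclear pore complex, in the nuclear basket, where it takes part in transport of proteins and RNA and contacts chromatin. ES cells are held in the pluripotent state by transcription factors such as POU5F1, SOX2 and NANOG, and are usually grown on fibroblasts that no longer divide and that secrete extracellular matrix. RNA from such a culture holds transcripts of both cell types, and in a bulk library fewer cells of a type and less RNA per cell cannot be told apart.

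The targeted gene Nup153 lies on chromosome 13 from 46679905 to 46727940 (GRCm38) and has 22 exons in its longest annotated transcript. Its reads numbered 27870 in control and 11126 in KD-2. Its log2 ratio was -1.42 (interval -1.45 to -1.39), 2.68-fold lower, and it ranked 12 from the bottom of the 12626 genes. KD-1 had 16451 reads on it, at a log2 ratio of -0.98. All 32 described nucleoporin genes, Nup153 included, were below 0 with the upper quartile. Of them 8 were lower (3 with library totals) and 0 higher, with a median log2 ratio of -0.44, where the 12626 genes together had a median of -0.05. Ranbp2, which encodes the large protein of the cytoplasmic filaments, had 54380 and 43071 reads (-0.43), and Pom121, a membrane nucleoporin, was the highest of the list with 656 and 677 reads (-0.05).

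KD-2 differed from control in many genes, and more of them were higher than lower. Of the 12626 genes, 1794 (14.2%) were higher and 1019 (8.07%) lower, and 9813 (77.7%) lay between both folds. Past 2-fold, 428 (3.39%) were higher and 91 (0.721%) lower. Past 4-fold, 16 were higher and 1 lower. The middle of the genes lay between quartiles of -0.34 and 0.33. The split depends on the scaling, and no spike-in counts were used here to set it. Higher genes made up 63.8% of the genes past 1.5-fold with the upper quartile and 86.1% with library totals (2573 higher and 417 lower), and library totals moved the median of all genes from -0.05 to 0.10.

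**Figure D1:**
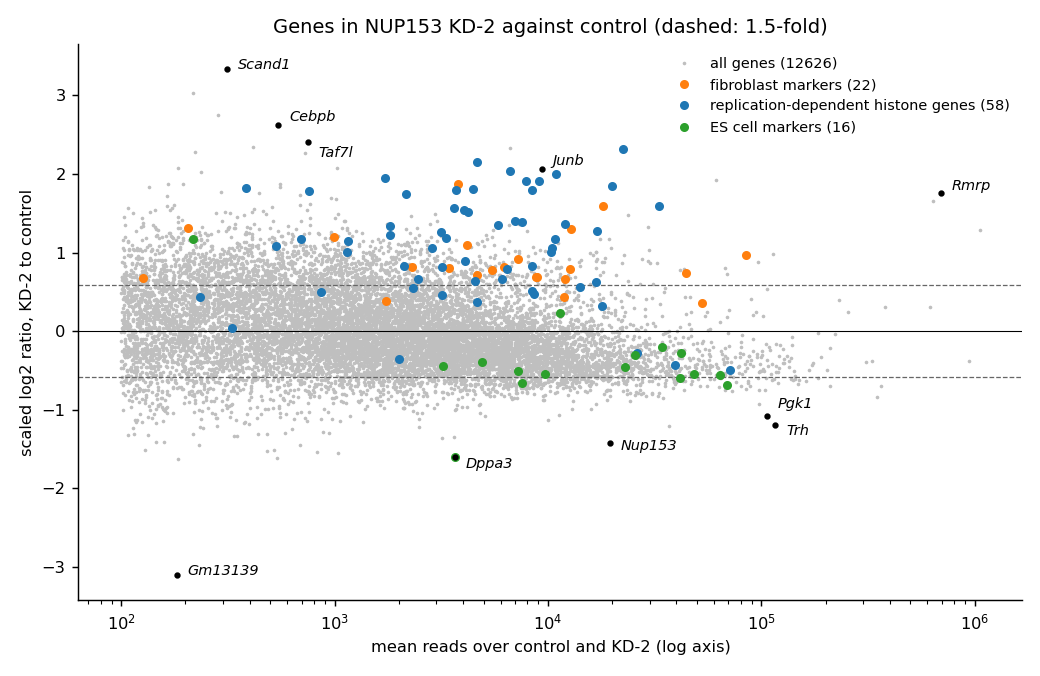
Scaled log2 ratio of KD-2 to control (y axis) against mean reads over both libraries (x axis, log scale) for the 12626 genes, with fibroblast markers, replication-dependent histone genes, ES cell markers and some named genes marked. Dashed lines are 1.5-fold; Nup153 lies at -1.42, the fibroblast markers all lie above 0, and 44 of 58 histone genes lie above the upper line.

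The 15 genes with the largest ratios were from 2.04 to 3.33 and hold genes of several kinds. Scand1, a SCAN domain gene on chromosome 2 from 156311847 to 156312704, had 53 control reads and 575 KD-2 reads, a log2 ratio of 3.33 (2.94 to 3.78) or 10.1-fold. Cebpb and Cebpd, which encode C/EBP transcription factors of the acute phase and of fat cell differentiation, had 143 and 947 reads (2.63) and 129 and 704 reads (2.35). Cebpa, the C/EBP of liver and myeloid cells, had 241 and 580 reads (1.17), whereas Cebpg (1394 and 1354 reads, -0.14) and Cebpz (14858 and 12933 reads, -0.30) were not higher. Of the 5 described genes with a Cebp symbol, a list chosen after the values were seen, 3 were past 1.5-fold. Ier5l, an immediate early response 5-like gene, had 69 and 499 reads (2.75), and Gdf15, a secreted stress-response cytokine, had 71 and 370 (2.28). 4930413G21Rik, annotated as a single-exon transcript whose type is still to be established, had 44 and 388 reads (3.03) and lies on the opposite strand of Rbbp6, whose own ratio was -0.35. Whether the counting used the strand is not given, so that reads of overlapping genes could not be separated. Of the 15 genes with the largest ratio 5 have exons that overlap those of a gene on the opposite strand. Besides 4930413G21Rik and Junb these are Scand1 with Cnbd2 (log2 ratio of the partner 0.27), Cebpb with Tmem189 (0.39) and Cebpd with Spidr (-0.36).

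For 2 of the genes with the largest ratios the KD-1 library had a similar number of reads as KD-2. Taf7l, an X-linked TFIID subunit of male germ cells, had 225 reads in control, 1275 in KD-2 and 1241 in KD-1 (log2 ratios 2.40 and 2.24). Ipw, a noncoding transcript of the imprinted Prader-Willi region, had 237, 1217 and 1443 reads (2.26 and 2.38). Scand1 had 53 reads in each of control and KD-1. Il3ra, the interleukin 3 receptor alpha chain, had 67, 303 and 141 reads (2.07 and 0.85). Of the 15 genes with the largest KD-2 ratio 7 have 1 exon in every annotated transcript, and the median GC content of the 14 that matched the annotation was 61.8%.

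Replication-dependent histone genes, whose transcripts lack introns and a poly(A) tail and are made in S phase, formed the list with the largest median among the lists with more than 5 described members, though not when the median ratio of genes of like GC content (10 bins over all genes) was subtracted (0.95, against 1.00 for proteoglycans and lysyl oxidases). Of 58 described genes of this list 44 were higher and 0 lower, and the median log2 ratio was 1.16, against 0.06 in KD-1. Among the histones, H4 genes had a median of 1.59 with 10 of 11 higher, H2B genes 1.38 with 12 of 17, H2A genes 1.18 with 13 of 14, and H3 genes 0.75 with 7 of 10, while 2 of 6 linker histone H1 genes were higher with a median of 0.44. Hist1h2bn had 7126 reads in control and 38056 in KD-2 (2.32), and Hist1h4j had 1617 and 7687 (2.15). Of the 5 members with a mean over 20000 reads 3 were below 0. These were Hist2h2bb with 81513 and 61903 reads (-0.49), Hist1h1a with 43868 and 34903 (-0.43) and Hist1h1b with 27866 and 24597 (-0.28), while Hist1h4d with 15688 and 50441 (1.59) and Hist1h2bn were higher. Summed over the members, H2B reads were 126532 in control and 197433 in KD-2 and H4 reads were 62275 and 193287. Histone genes have near-identical copies, so that the assignment of reads to single members is uncertain. Outside of this list, H2afx, which encodes the variant H2A.X that is phosphorylated at DNA breaks and is made both with and without a poly(A) tail, had 2092 and 11235 reads (2.33). It was the highest of 10 described histone variant genes, a list chosen after the values were seen, of which 3 were higher and 0 lower (median 0.01).

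Genes of replication and mitosis did not share this direction. Of 31 S phase and replication genes 0 were higher and 9 lower (median -0.51, KD-1 -0.03), and Pola1, the catalytic subunit of DNA polymerase alpha, was lowest with 30558 and 17672 reads (-0.89). Of 28 G2 and mitosis genes 0 were higher and 7 lower (median -0.52, KD-1 0.03), with 82922 and 52724 reads on Top2a, the DNA topoisomerase of mitotic chromosomes (-0.75). With library totals 3 of the S phase genes and 1 of the G2 and mitosis genes were lower, and with GC bin medians subtracted 2 and 1. Among 15 genes of cell cycle inhibitors and D cyclins 7 were higher and 1 lower (median 0.57, KD-1 -0.16), beside medians of 0.79 and -0.58 for the fibroblast markers of the feeder cells, whose part in this list was not tested. Cdkn2a, which encodes the inhibitors p16 and ARF, had 1650 and 3768 reads (1.09), and the p107 gene Rbl1 had 1902 and 1340 (-0.60).

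Promoter sequences from RefSeq (GRCm38.p6, 250 bases before to 50 after a gene's most upstream start, 300 bases in all) were matched to 10010 of the 12626 genes, 9526 by symbol and 484 by an older symbol. They are shown here for 2 histone genes, for Junb and Cebpb, and for Hook1, a gene that was lower in KD-2. The histone genes were chosen because, without GC bin medians subtracted, they had the largest median among the lists with more than 5 described members. Many of their promoters also hold the letters of the TATA and CCAAT boxes. Capitals mark 3 short motifs on either strand, the letters TATAAA of the TATA box, the letters CCAAT of the CCAAT box and the letters GGGCGG of the GC box, so that a match on the opposite strand appears as its reverse complement.
Hist1h2bn promoter, GRCm38.p6 chr13:21753826-21754125 (+ strand): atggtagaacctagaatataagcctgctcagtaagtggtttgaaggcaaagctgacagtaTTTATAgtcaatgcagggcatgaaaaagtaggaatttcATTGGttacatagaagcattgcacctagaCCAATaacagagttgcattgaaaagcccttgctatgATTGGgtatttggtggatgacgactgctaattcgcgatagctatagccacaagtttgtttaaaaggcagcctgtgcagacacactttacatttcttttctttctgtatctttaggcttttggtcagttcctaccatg
Hist1h4j promoter, GRCm38.p6 chr13:21734784-21735083 (+ strand): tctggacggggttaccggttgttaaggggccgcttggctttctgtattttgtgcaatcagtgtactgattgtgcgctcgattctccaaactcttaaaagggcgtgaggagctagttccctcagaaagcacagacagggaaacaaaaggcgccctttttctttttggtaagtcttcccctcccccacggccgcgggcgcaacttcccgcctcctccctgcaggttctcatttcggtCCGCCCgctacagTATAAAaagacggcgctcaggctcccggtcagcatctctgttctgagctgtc
Junb promoter, GRCm38.p6 chr8:84978699-84978998 (- strand): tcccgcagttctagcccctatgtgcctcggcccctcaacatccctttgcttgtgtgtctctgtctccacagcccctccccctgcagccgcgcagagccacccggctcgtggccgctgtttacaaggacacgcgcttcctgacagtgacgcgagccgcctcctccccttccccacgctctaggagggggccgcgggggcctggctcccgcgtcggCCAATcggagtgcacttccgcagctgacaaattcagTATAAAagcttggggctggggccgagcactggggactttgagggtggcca
Cebpb promoter, GRCm38.p6 chr2:167688665-167688964 (+ strand): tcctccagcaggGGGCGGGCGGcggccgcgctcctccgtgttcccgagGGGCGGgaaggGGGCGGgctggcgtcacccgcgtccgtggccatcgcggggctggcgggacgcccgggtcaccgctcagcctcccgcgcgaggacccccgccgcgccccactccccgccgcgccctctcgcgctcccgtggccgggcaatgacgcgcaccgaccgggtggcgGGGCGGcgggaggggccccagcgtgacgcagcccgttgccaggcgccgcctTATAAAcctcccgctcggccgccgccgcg
Hook1 promoter, GRCm38.p6 chr4:95967129-95967428 (+ strand): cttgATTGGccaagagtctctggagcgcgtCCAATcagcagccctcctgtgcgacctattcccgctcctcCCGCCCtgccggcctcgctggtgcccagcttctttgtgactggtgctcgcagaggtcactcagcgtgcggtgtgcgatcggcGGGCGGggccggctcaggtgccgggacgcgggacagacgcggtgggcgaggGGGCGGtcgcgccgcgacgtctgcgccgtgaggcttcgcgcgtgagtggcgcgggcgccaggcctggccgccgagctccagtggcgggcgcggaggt

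TATAAA was found in 61.5% of 52 histone promoters and CCAAT in 86.5%, against 7.31% and 39.7% of the 10010 matched promoters. In the printed windows Hist1h2bn held 3 matches of CCAAT and 1 of TATAAA, Hist1h4j held 0 of CCAAT and 1 of TATAAA, and Hook1 held 2 of CCAAT and 0 of TATAAA. Over all genes the classes differed less. TATAAA was found in 10.5% of 1394 promoters of higher genes, in 7.40% of 757 of lower genes and in 6.73% of 7859 of genes between the folds, and without the histone genes the share among higher genes was 9.16%. GGGCGG was found in 65.6% of higher genes, 57.1% of lower genes and 65.9% of genes between the folds, and in 65.2% of all 10010 matched promoters. CCAAT was found in 36.4%, 44.9% and 39.8% of these classes, and in 39.7% of all 10010. In all 27025 promoters of the same length in the table the shares were 14.2% for TATAAA, 38.0% for CCAAT and 35.9% for GGGCGG. A match of such letters does not show that a factor binds there.

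Immediate early genes, which cells switch on within minutes of a stimulus, were mostly higher. Of 23 described genes 17 were higher and 1 lower, with a median of 0.73 (KD-1 -0.10). The fibroblast markers of the feeder cells had medians of 0.79 and -0.58 in KD-2 and KD-1, and their part in this list was not tested. Junb, a gene on chromosome 8 from 84974484 to 84978718 that encodes a subunit of the AP-1 transcription factor, had 3417 reads in control and 15273 in KD-2 (2.06, interval 2.01 to 2.12), and 4052 in KD-1 (0.02), and its exons overlap those of Prdx2 (log2 ratio -0.30) on the opposite strand. Egr1, a zinc finger factor of the same early response, was the member that was lower, with 2673 and 1647 reads (-0.80). Other members with many reads were Klf6 (5603 and 8408 reads, 0.49) and the antiproliferative gene Btg2 (3748 and 6458, 0.69). Among stress genes the p53 targets were higher in 7 of 25 and lower in 0 (median 0.28), integrated stress response genes were higher in 6 of 23 and lower in 3 (median -0.10), and 0 of 18 unfolded protein response genes were past either fold (median -0.08, 0.07 with library totals). For the integrated stress response genes the median was 0.05 with library totals, and with GC bin medians subtracted 4 were higher and 5 lower (median -0.16). Heat shock chaperones were higher in 4 of 17 and lower in 3 (median 0.03), and lower in 0 with library totals and with GC bin medians subtracted. Hspa1a, an inducible HSP70 gene with a near-identical copy, had 76 and 185 reads (1.18), whereas the constitutive chaperone Hsp90aa1 had 437594 and 289038 (-0.70). Of 23 NRF2 targets 2 were higher and 2 lower (8.7% each), and 5 and 2 with library totals. Over all described genes 14.2% were higher and 8.07% lower. Hmox1, heme oxygenase 1, had 10350 and 24856 reads (1.17), and Gpx2, a glutathione peroxidase, had 273 and 94 (-1.63).

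The RNAs of RNase P and RNase MRP, made by RNA polymerase III, were among the most abundant genes that were higher. Rmrp, the RNA of RNase MRP, had 300662 reads in control and 1084311 in KD-2 (1.75), and Rpph1, the RNA of RNase P, had 290657 and 980056 (1.66). Rprl3, a copy related to the RNase P RNA, had 24276 and 98460 (1.92). All 5 described genes of a list chosen after the values were seen were higher, and 4 with GC bin medians subtracted. The list also holds Terc, the telomerase RNA, which in mouse is made by RNA polymerase II and was its lowest with 3252 and 5249 reads (0.59). In KD-1 the median of these 5 was 0.30. Many small nucleolar RNAs, which guide modification of ribosomal RNA and are mostly cut from introns, were lower. Of 77 described genes 42 were lower and 2 higher (median -0.63, KD-1 -0.01). With library totals 28 were lower and with GC bin medians subtracted 26, and 2 were higher in both. The members ranged from Snord43 with 507 and 242 reads (-1.16) to Snord49b with 325 and 883 (1.34). Of 20 microRNA genes 10 were lower (6 with GC bin medians subtracted) and 4 higher (median -0.57). Small nucleolar RNAs lie within longer transcripts, and reads of a host transcript that cover them are counted on either gene or left out.

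The second large group of higher genes was that of extracellular matrix and mesenchymal genes. Of 22 interstitial collagen genes 21 were higher and 0 lower (median 0.89, KD-1 -0.60), of 13 proteoglycan and lysyl oxidase genes 11 and 0 (0.82, KD-1 -1.10), of 29 matricellular and elastic fibre genes 17 and 0 (0.69, KD-1 -0.45), and of 13 basement membrane genes 8 and 0 (0.68, KD-1 0.24). Col3a1, a fibrillar collagen of loose connective tissue, had 54628 reads in control, 114064 in KD-2 and 25523 in KD-1 (0.97 and -1.32). Col5a1, which nucleates collagen fibrils, had 8563, 27541 and 9050 (1.59 and -0.14), and Loxl1, an enzyme that crosslinks elastin, 1542, 6052 and 1236 (1.88 and -0.54). The exceptions include Lama1, the laminin chain of the early embryonic basement membrane, with 7075 and 5600 reads (-0.43), and Omd, osteomodulin, with 10432 and 8738 (-0.35). Among contractile and SRF target genes 12 of 21 were higher (median 0.65), with 122 and 292 reads on Actg2, enteric smooth muscle actin (1.16), and 225237 and 284377 on Actb, cytoplasmic actin (0.24). Matrix metalloproteinases and TIMPs were higher in 6 of 12 (median 0.62) and chemokines and inflammatory cytokines in 8 of 15 (median 0.59), with 3026, 7304 and 1501 reads in control, KD-2 and KD-1 on Cxcl12, the ligand of CXCR4.

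Fibroblast markers, which stand for the feeder cells, differed in the same direction. Their list shares Loxl1 with that of proteoglycans and lysyl oxidases, so that it is not independent of the matrix lists. All 22 fibroblast markers were above 0 in KD-2 and 19 were higher, with a median of 0.79, and in KD-1 their median was -0.58 with 11 lower and 0 higher, where 561 (4.44%) of the 12626 genes were lower in KD-1 and 425 (3.37%) higher. Their summed reads were 213670 in control, 400118 in KD-2 and 158203 in KD-1. Fstl1, follistatin-like 1, had 32029 and 57156 reads (0.74), and S100a4, the fibroblast-specific protein 1 gene, was the lowest with 44210 and 60786 (0.36). Reads were also found on genes of the Y chromosome, although the ES cell line is labelled female. Of 47 Y-linked genes 5 were described, and they were chosen after the data were seen. Ddx3y had 3662 reads in control, 5792 in KD-2 and 2853 in KD-1 (0.56 and -0.58), Eif2s3y had 1392, 2151 and 1432 (0.53 and -0.18), Kdm5d had 615, 985 and 497 (0.58 and -0.53) and Uty had 690, 1077 and 620 (0.55 and -0.38). Uba1y, a ubiquitin-activating enzyme gene with an X-linked relative, differed in the opposite direction with 144, 107 and 198 (-0.52 and 0.24). The other 4 were thus between 0.53 and 0.58 in KD-2, below the median of the fibroblast markers, and all below 0 in KD-1. The part of the feeder cells in the matrix, contractile and cytokine values above was not tested.

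**Figure D2:**
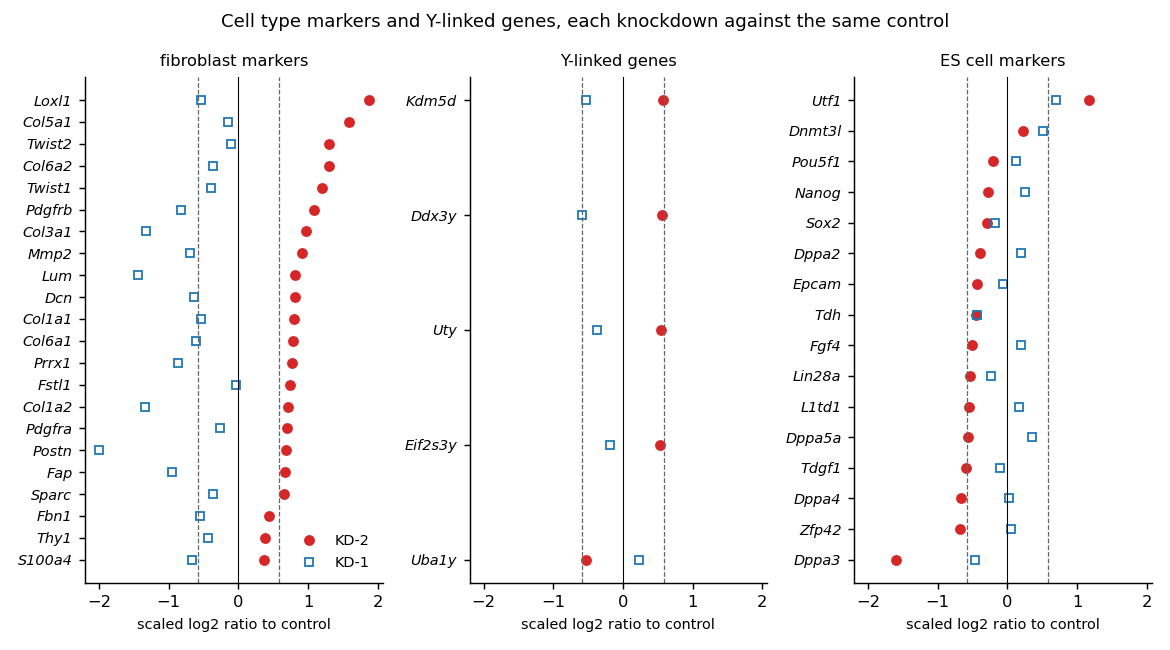
Scaled log2 ratio to control (x axis) of each fibroblast marker, Y-linked gene and ES cell marker that averaged at least 100 reads in control and KD-2, for KD-2 (filled circles) and KD-1 (open squares). Dashed lines are 1.5-fold; all 22 fibroblast markers lie above 0 in KD-2 and below 0 in KD-1, and 14 of 16 ES cell markers lie below 0 in KD-2.

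In the lists of TGF-beta and BMP, Wnt, IGF and Notch pathway genes at least 46.2% of the described members were higher, where all genes had 14.2%. TGF-beta and BMP pathway genes were higher in 16 of 31 (median 0.71, KD-1 -0.03), Wnt pathway genes in 16 of 32 (median 0.72, KD-1 0.01) and IGF pathway genes in 8 of 13 (median 0.76, KD-1 0.06), and 0 members of the 3 lists were lower. Smad6, an inhibitor of BMP signalling, had 460 and 1577 reads (1.68), and Id3, a BMP target, had 6262 and 12679 (0.92). Fzd2, a Wnt receptor, had 586 and 1657 (1.40), whereas beta-catenin, Ctnnb1, had 58740 and 57003 (-0.14). Igf2, an imprinted growth factor, had 10646 and 22852 (1.00). Notch pathway genes were higher in 6 of 13 (median 0.39; 3 of 13 with GC bin medians subtracted). FGF pathway genes were higher in 3 of 20 (median 0.21; 7 with library totals), near the share of all genes, and Hedgehog pathway genes in 3 of 11 (median 0.18; 0.02 with GC bin medians subtracted). Gas1, a Hedgehog co-receptor, had 1585 and 4486 reads (1.40). The fibroblast markers stood at a median of 0.79 in KD-2 and -0.58 in KD-1, and the part of the feeder cells in the values of these pathways was not tested.

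Of 39 Hox genes, which pattern the body axis, 8 were described, and 6 of them were higher and 0 lower (median 0.84, KD-1 -0.08). Hoxa13 had 96 and 244 reads (1.24) and Hoxd13, with most reads, had 1304 and 2126 (0.61). Hoxa9, Hoxa10, Hoxa11, Hoxa11os and Hoxa13 form a run of 5 neighbouring described genes on chromosome 6, from 52223100 to 52260880, that were all higher. Hoxa11os is the opposite strand transcript of Hoxa11, and reads of both could not be separated if the counting did not use the strand. All 3 described Iroquois homeobox genes, a list chosen after the values were seen, were higher, with Irx1 at 77 and 249 reads (1.59), Irx3 at 83 and 264 (1.57) and Irx2 at 254 and 532 (0.97). Clustered protocadherins, cell surface proteins of neurons, were higher in 13 of 21 (median 0.62), as Pcdhb16 with 100 and 236 reads (1.14). Of 30 imprinted genes 10 were higher and 0 lower (median 0.32), and H19, a noncoding RNA of the Igf2 locus, had 64698, 127494 and 43961 reads in control, KD-2 and KD-1 (0.88 and -0.78). The part of the feeder cells in the Hox, Iroquois, protocadherin and imprinted gene values was not tested either.

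Most genes that mark ES cells were modestly below 0 in KD-2. All 16 ES cell markers were described. Of them 4 were lower (1 with library totals) and 1 higher, and the median was -0.48 (KD-1 0.09). Pou5f1 had 35405 and 32962 reads (-0.20) and Zfp42, a marker of the naive state, had 82732 and 54998 (-0.69). Dppa3, on chromosome 6 from 122626410 to 122630272, which encodes a maternal factor that protects DNA methylation in the early embryo, was the lowest, with 5419 and 1912 reads (-1.60, interval -1.68 to -1.52) and 4567 in KD-1 (-0.47). Utf1, an ES cell chromatin factor, was the highest with 127 and 308 (1.18). The naive pluripotency factors as a list had a median of 0.08, with 2 higher and 2 lower of 14 (3 and 0 with library totals, 0 and 0 with GC bin medians subtracted). Nanog had 44622 and 39339 reads (-0.28), and Klf4 11691 and 13948 (0.16). Primitive endoderm markers were higher in 5 of 12 (median 0.51, KD-1 0.18), and the highest was the basement membrane collagen Col4a2 (2793 and 6509 reads, 1.12). The fibroblast markers of the feeder cells had a median of 0.79 in KD-2, with 19 of 22 higher, and of -0.58 in KD-1. The part of the feeder cells in the primitive endoderm values was not tested. Few genes of other lineages were described, with 6 of 21 mesendoderm, 5 of 23 neural and 7 of 16 trophoblast markers, and their medians were -0.09, -0.32 and 0.28. With library totals the mesendoderm median was 0.06, and with GC bin medians subtracted the trophoblast median was -0.13. Of 15 endothelial and blood markers 6 were described, with 1 higher and 1 lower. Germline and meiosis genes were higher in 7 of 23 and lower in 5 (median 0.18), but lower in 1 with library totals and in 0 with GC bin medians subtracted, where 8 and 7 were higher, and Asz1, a gene of the piRNA pathway, was lowest with 172 and 107 reads (-0.78).

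Lefty1 and Lefty2, secreted inhibitors of Nodal that are made in response to it, were among the lowest of the abundant genes. Lefty2 had 50702 reads in control, 23447 in KD-2 and 52751 in KD-1 (-1.21 and -0.17), and Lefty1 had 13455, 6605 and 13779 (-1.12 and -0.19). Nodal itself had 5256 and 5585 reads (-0.01), and its co-receptor gene Tdgf1 had 48537 and 34353 (-0.60). Of 11 described genes of the Nodal pathway, a list chosen after the values were seen, 0 were higher and 3 lower (median -0.16). The Lefty genes lie close to each other on chromosome 1, Lefty2 from 180893108 to 180899103 and Lefty1 from 180935022 to 180938400. Trh, which encodes thyrotropin-releasing hormone, had 158182, 74305 and 108967 reads (-1.19 and -0.76), and Pgk1, the X-linked gene of a glycolysis enzyme, had 141468, 71821 and 125563 (-1.07 and -0.39). Of 24 genes of glycolysis and hypoxia 5 were lower and 3 higher (median -0.27), and the growth factor Vegfa was highest with 1610 and 3436 reads (1.00). Cholesterol synthesis genes were lower in 5 of 25 and higher in 0 (median -0.38, KD-1 -0.24), with 3 lower with library totals and 8 with GC bin medians subtracted. Idi1, the isopentenyl diphosphate isomerase, had 12152, 7116 and 6745 reads in control, KD-2 and KD-1 (-0.87 and -1.07).

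Only Gm13139, a predicted gene on chromosome 4 from 147132038 to 147180579 with 324 reads in control and 40 in KD-2 (-3.10, interval -3.63 to -2.64), was lower past 4-fold. In KD-1 it had 284 reads (-0.41). Bche, butyrylcholinesterase, had 793 and 276 reads (-1.62), and Myl7, the atrial myosin light chain, had 705 and 261 (-1.53). Esrp1, a splicing factor of epithelial cells, had 187 and 70 (-1.51), and the list of epithelial junction genes that holds it had 3 of 15 lower and 0 higher (median -0.35; 1 lower and 1 higher with library totals), with 16935 and 11151 reads on Cdh1, E-cadherin (-0.70). Among the more abundant low genes were 2810417H13Rik, a PCNA-binding factor, with 4492 and 1877 reads (-1.36), Hook1, an adaptor of endosome transport, with 5117 and 2147 (-1.35; its exons overlap those of 9530080O11Rik on the opposite strand), and Magohb of the exon junction complex with 3411 and 1568 (-1.22). Of the 15 genes with the lowest ratio 6 lie on the X chromosome and 0 have 1 exon in every annotated transcript. In KD-1, set against the same control reads, Gpx2 had 128 reads (-1.31) and Bche 386 (-1.26).

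Genes of the translation and protein turnover machinery were mostly below 0, and few of them were past 1.5-fold. Cytosolic ribosomal protein genes had a median of -0.38 with 13 of 78 lower (3 with library totals) and 1 higher, mitochondrial ribosomal protein genes -0.32 with 7 of 74 lower and 2 higher, proteasome subunit genes -0.35 with 4 of 37 lower, and respiratory complex I genes -0.16 with 1 of 35 lower. Except for the first list these shares are near or below the 8.07% of all genes. In the other 3 lists 0 members were lower with library totals or with GC bin medians subtracted. In the first list 16.7% were lower, and 7 of 78 genes with GC bin medians subtracted. Among all described genes averaging 10000 reads or more 14.1% were lower (median -0.33). The part of the read level in the values of the first list was not tested. Rps4x, an X-linked ribosomal protein gene, had 251936 and 166856 reads (-0.69), whereas Rplp0 had 219398 and 202739 (-0.21). CTCF and cohesin genes were lower in 4 of 17 (1 with GC bin medians subtracted) and higher in 0 (median -0.43, KD-1 -0.01), with 38164 and 23397 reads on Smc1a, an X-linked cohesin subunit (-0.80), and 27234 and 22213 on Smc3, its partner (-0.39). Polycomb genes were higher in 6 of 32 and lower in 2 (median -0.14). With library totals 7 were higher and 0 lower (median 0.007), with GC bin medians subtracted 3 were higher and 0 lower, and Mtf2 was lowest among them with 29390 and 20635 reads (-0.61). The 324 described Zfp zinc finger genes were lower in 43 and higher in 20 (median -0.27), but lower in 15 and higher in 34 with library totals, and lower in 10 and higher in 21 with GC bin medians subtracted. Interferon-stimulated genes were near 0 in KD-2, with 4 of 39 higher and 1 lower (median 0.16), while in KD-1 25 of them were lower, where 4.44% of all genes were.

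**Figure D3:**
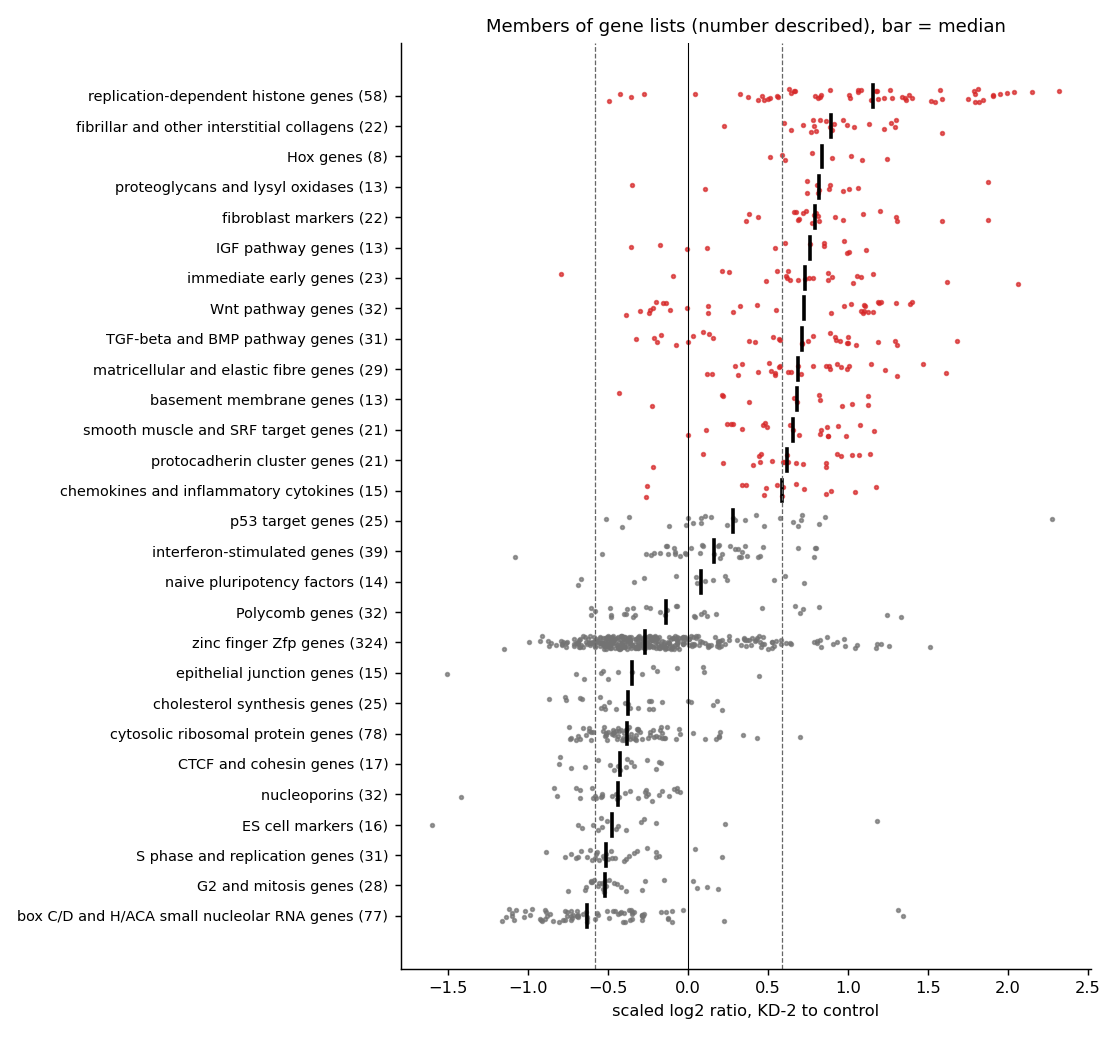
Scaled log2 ratio of KD-2 to control (x axis) of the members of 28 gene lists (y axis, number of described members in brackets), with points for genes and black bars for list medians. Dashed lines are 1.5-fold; lists with a median past 1.5-fold higher are in red, and they range up to 1.16 for the replication-dependent histone genes.

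The ratios of KD-2 followed the GC content of the transcripts. Among 12555 annotated genes, split into 10 bins of GC content, the median log2 ratio went from -0.30 in the lowest bin (29.6% to 41.2% GC) to 0.41 in the highest (57.5% to 70.0%). In the lowest bin 5.02% of the genes were higher and 18.4% lower, and in the highest 37.1% were higher and 1.27% lower. In KD-1 the medians of the same bins were -0.04 and 0.08. Spearman's rho between GC content and log2 ratio was 0.39 across these genes in KD-2 and 0.16 in KD-1, as a description, since genes are not independent and both ratios share the control library. The difference was present at each read level. Among genes with a mean of 100 to 1000 reads the medians of the lowest and highest 3 bins were -0.08 and 0.33, and among genes with at least 10000 reads they were -0.44 and -0.09. The ratios also followed the read level, with medians of 0.17 at 100 to 300 reads and -0.33 at 10000 reads or more.

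**Figure D4:**
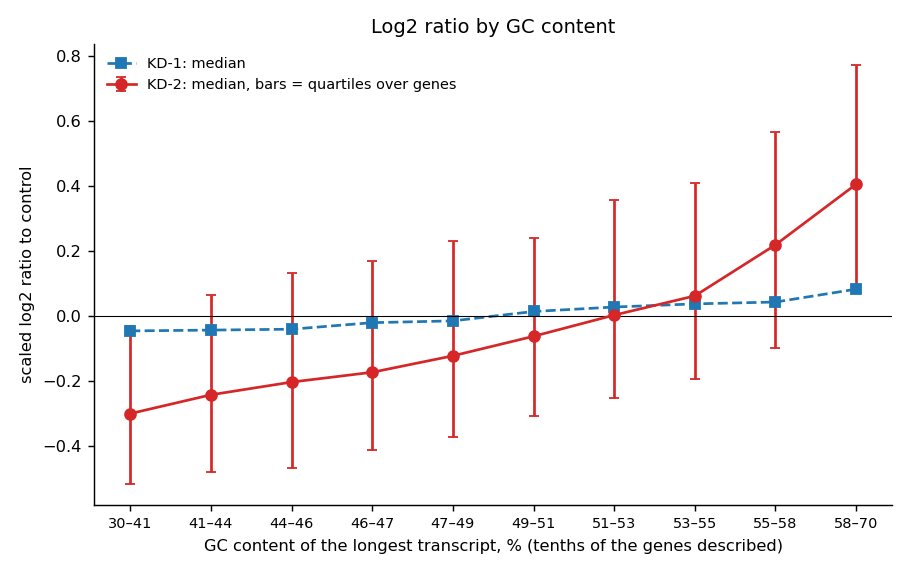
Median scaled log2 ratio to control (y axis) in 10 bins of transcript GC content (x axis, percent) for KD-2 (circles, bars are quartiles over genes) and KD-1 (squares). The KD-2 medians go from -0.30 to 0.41 and those of KD-1 from -0.04 to 0.08.

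Because of this trend the median of each gene's GC bin was subtracted, an alternative chosen after the data were seen. The numbers were then 1718 higher and 589 lower, so that higher genes made up 74.5% of both, and 1331 of the 1794 higher genes and 397 of the 1019 lower genes were in the same class as before. The medians were 0.91 for fibroblast markers, 0.83 for interstitial collagens, 0.95 for replication-dependent histones and 1.00 for proteoglycans and lysyl oxidases, which then had the largest median of the lists with more than 5 described members. The median came closer to 0 for G2 and mitosis genes (-0.32, with 1 of 28 then lower), for CTCF and cohesin genes (-0.19) and for Zfp genes (-0.09). The log2 ratio of Nup153 was then -1.25.

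The X chromosome stood below all autosomes. Its 502 described genes, a list added after the values were seen, had a median log2 ratio of -0.30. The 12048 autosomal genes had -0.04, and single autosomes lay between -0.11 and 0.06. On the X chromosome 121 genes (24.1%) were lower and 31 (6.18%) higher, and 367 (73.1%) were below 0. With library totals 61 were lower and 45 higher, where all described genes had 417 lower and 2573 higher. On the autosomes 889 (7.38%) were lower and 1756 (14.6%) higher. With the GC bin medians subtracted, the median of the X chromosome was -0.17. Of its genes 57 were then lower and 43 higher, where all genes had 589 lower and 1718 higher. The lower values were spread along the chromosome. Of 13 windows of 10 Mb with at least 10 described genes, 12 had a median below 0, down to -0.48. In KD-1 the X-linked median was -0.03.

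**Figure D5:**
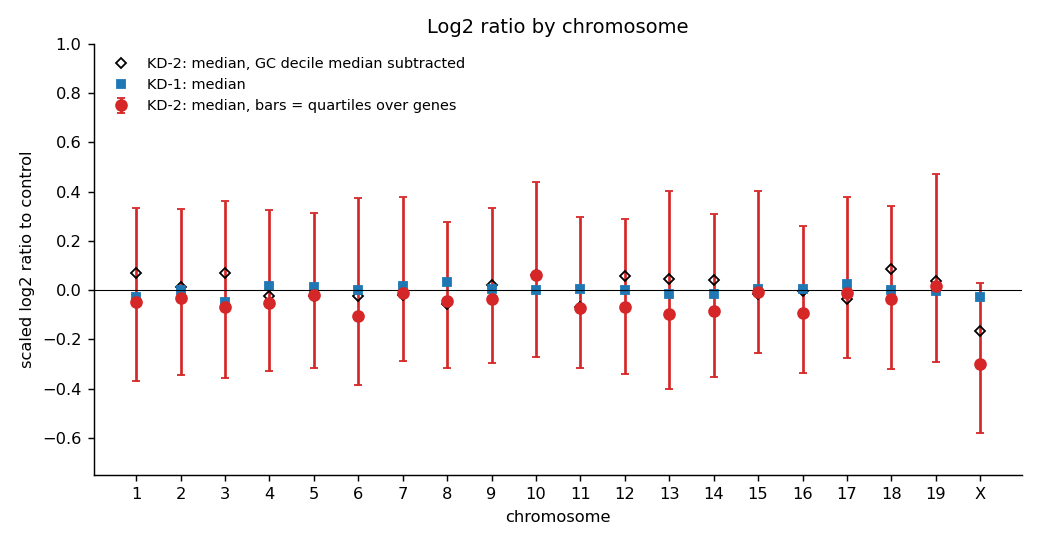
Median scaled log2 ratio to control (y axis) of the described genes of each chromosome (x axis) for KD-2 (circles, bars are quartiles over genes), for KD-2 with GC bin medians subtracted (open diamonds) and for KD-1 (squares). The X chromosome lies at -0.30 in KD-2, and the autosomes lie between -0.11 and 0.06.

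Among X-linked genes the Rhox homeobox cluster, expressed in the germline and placenta and listed after the values were seen, held several of the lowest ratios. Rhox6 had 1517 reads in control and 556 in KD-2 (-1.54), Rhox9 had 1211 and 445 (-1.54) and Rhox10 had 227 and 91 (-1.41). Rhox5 (8652 and 10566 reads, 0.19) and Rhox13 (172 and 231, 0.33) of the same cluster were above 0, so that 3 of 5 described members were lower. In KD-1 the log2 ratios of these genes were -0.95, -0.87, -1.05, 0.51 and 0.66. Another stretch of the X chromosome, from 111388192 to 112698651, held 5 neighbouring described genes, Rps6ka6, Hdx, Apool, Zfp711 and Pof1b, that were all lower with a median of -0.99. The longest runs of neighbouring higher genes lay in the histone clusters of chromosome 13, with 7 genes from 23681467 to 23745602 and 6 from 23531050 to 23551648. Outside of the histone clusters the longest runs of higher genes held 5 genes. They were 1700091H14Rik to Gm8267 on chromosome 14, Pcdhb5 to Pcdhb22 on chromosome 18 and Hoxa9 to Hoxa13 on chromosome 6. Among the runs of 4 higher genes was that of Prelp, Fmod, Btg2 and Chil1 on chromosome 1, of which Prelp and Fmod encode matrix proteoglycans.

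Protein-coding genes with 1 exon in every annotated transcript had a larger share of higher genes than those with 2 or more exons in a transcript. Among the former 106 of 242 (43.8%) were higher and 6 (2.48%) lower, with a median log2 ratio of 0.46. Without the replication-dependent histone genes the numbers were 64 of 188 (34.0%) and 6 (3.19%), with a median of 0.26. Among the 11814 genes with 2 or more exons in a transcript 1632 (13.8%) were higher and 890 (7.53%) lower, with a median of -0.05. The median GC content was 54.3% for the genes with 1 exon and 49.4% for the others, and the part of GC content in the difference was not tested. By gene type, 1738 of 12056 protein-coding genes (14.4%) were higher and 896 (7.43%) lower, and among 125 long intergenic noncoding RNAs 15 were higher and 23 lower (median -0.21).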

How the data were processed

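The comparison used 1 control and 1 NUP153 KD-2 RNA-Seq library, with NUP153 KD-1 beside them. Per the labels and methods, the authors trimmed 50 bp single-end reads with Trim Galore 0.4.1, mapped them with TopHat2 2.1.1 to mm10, and deposited unnormalized read counts for each gene. The labels name HTSeq and the methods featureCounts, with a mapping quality over 30, and the strand setting is not given in the sources used here. Summary lines were left out of the counts. They held 21.8% (control) and 21.5% (KD-2) of reads outside of genes and 1.65% and 1.45% ambiguous reads.

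The methods name ERCC spike-ins, mapped apart from the genome, and RUVseq for normalization. Counts of spike-ins were not used here, so that the ratios are relative to the genes of the libraries. Pairwise scaling factors came from edgeR 4.0.16 (upper quartile) over the 20658 genes with a read in either library. Log2 ratios took a pseudocount of 0.5 reads, and the intervals are exact Clopper-Pearson intervals of 95% conditional on the sum of both counts. No test of changed genes was run, since there is 1 library per group. The scripts were tested on simulated data. TMM, DESeq2 1.42.0 size factors, library totals, minimum means of 10 and 1000 reads, a fold of 2 and a pseudocount of 5 reads were the alternatives, and GC bin medians were added after seeing the data. The members, the 61 gene lists and the rules were chosen with earlier results of these data known, and 8 lists were added after the values were seen. Named genes are Nup153, the 15 genes with the largest and the 15 with the lowest ratio at means of at least 100 and of at least 1000 reads, and from each list those with the largest and lowest ratio and with most reads. The 5 Y-linked genes, Cebpa, Cebpg, Irx2, members of neighbouring runs, Smc3, Id3, Klf6, Btg2, Igf2, Nodal, Pou5f1 and Rplp0 stand outside of these or were chosen after their values were seen. Exons, lengths, GC content (longest transcript) and positions are from GENCODE vM21 (GRCm38, the same assembly as mm10), which matched 12555 of the 12626 genes, 12177 by symbol and 378 by an older symbol. Tools were Python 3.11.15, pandas 2.3.3, numpy 2.4.6, scipy 1.17.1, matplotlib 3.10.9 and R 4.3.3.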

Additional observations from a re-analysis of the deposited data

How the results depend on the processing

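No paired analysis was possible because each condition has 1 library. The log2 ratio of Nup153 was -1.27 with library totals and -1.25 with GC bin medians subtracted. Higher and lower genes numbered 428 and 91 past 2-fold, 2873 and 1591 with a minimum mean of 10 reads and 718 and 647 with 1000. Lower genes numbered 417 with library totals and 589 with GC bin medians subtracted. The median log2 ratio of all described genes was -0.018 with TMM, -0.035 with DESeq2 size factors, -0.010 with the minimum mean of 10 reads and -0.14 with 1000, and library totals turned its sign to 0.10. The 49 genes other than Nup153 named for a largest or lowest ratio over all genes all remained past 1.5-fold under the 3 other scalings and the pseudocount of 5 reads, and so did the 48 with GC content after subtraction of GC bin medians. Of 61 list medians 13 moved out of their interval (order statistics, 95%) with library totals and 6 with GC bin medians subtracted. The cause was not tested. Depth limits genes with few reads in either library most. The interval of a log2 ratio was up to 0.99 wide, for Gm13139 with 40 reads in KD-2, against a median of 0.20.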
